A study of Homo sapiens with 4 samples.

Results

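The cytosolic ribosome is built from ribosomal RNA and a fixed set of proteins, and the promoters of the genes that encode those proteins were examined here in RD cells, a human fusion-negative rhabdomyosarcoma (FN-RMS) cell line. Members were the protein-coding genes of the GENCODE annotation of hg38 whose symbol is RPL or RPS followed by digits with an optional A or X, together with RPLP0, RPLP1, RPLP2 and RPSA. Symbols with an L after the digits and the kinase genes named RPS6K were left out. The rule gave 77 of 20033 protein-coding genes, of which 46 encode proteins of the large 60S subunit and 31 encode proteins of the small 40S subunit. The genes lie on 21 chromosomes, with 12 of them on chromosome 19. No ChIP-seq value entered the choice of members.

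The data were 4 ChIP-seq peak lists from 4 libraries, 1 for each combination of antibody and arm. In the control arm RD cells carried a lentiviral non-targeting short hairpin RNA (shSCR, genotype labelled WT), and in the knockdown arm they carried a hairpin against SKP2 (shSKP2), which encodes the F-box subunit of a ubiquitin ligase. Both arms were of the same line and, by the study's methods, both hairpins were delivered in a puromycin-selectable vector, with a single SKP2 hairpin used for ChIP-seq. H3K27ac is the acetylation of lysine 27 of histone H3 that marks active promoters and enhancers, and MYOD is a basic helix-loop-helix factor that drives skeletal muscle differentiation. Each arm had 1 library per antibody, so no comparison below has a replicate check and no p-value between arms was computed. Intervals are 95% Wilson intervals unless stated and cover counting error only. A peak list does not measure the knockdown of SKP2, which was therefore not checked here.

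Ribosomal protein genes are transcribed by RNA polymerase II from strong promoters that are active in every growing cell, and their products are made in near-equal amounts. Their messenger RNAs typically start with a C followed by a run of pyrimidines, the 5′ terminal oligopyrimidine tract (TOP) through which mTOR signalling controls their translation. Since these promoters are active whatever the cell type, they were used as a scale against which a general difference between the arms can be read. That they stay constant between the arms is an assumption that was not tested. The paper reports more RD cells in G1, fewer in S phase and myogenic differentiation after SKP2 depletion.

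The members shared features that the rule did not use. Their median length was 5.33 kb against 27.5 kb over all protein-coding genes. A small nucleolar RNA gene lay inside 28 of the 77 (36.4%), against 256 of all protein-coding genes (1.28%). The RefSeq promoter sequences (GRCh38.p14) held an entry for 62 members, and the RefSeq start was the same base as the GENCODE start in 55 of these. At that start, a C followed by 4 pyrimidines was found in 42 of 62 members (67.7%, interval 55.4 to 78.0%) and in 4.65% of 15345 protein-coding promoters. Within 5 bases of the start the share was 80.6% of members and 22.2% of all promoters.

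The start regions of 8 members are shown because these genes return below as those with the highest or lowest fold or with the largest differences between the arms. Each sequence runs 5′ to 3′ on the gene's own strand, with 25 bases before the start and 15 from the start on, and capitals mark the C and the pyrimidines that follow it. RPL21 lies at chr13:27251533-27251572 on the plus strand, RPS19 at chr19:41860230-41860269 on the plus strand and RPL31 at chr2:101002264-101002303 on the plus strand. RPL32 lies at chr3:12841551-12841590 on the minus strand. RPS6 lies at chr9:19380222-19380261 on the minus strand, RPS14 at chr5:150449725-150449764 on the minus strand, RPLP1 at chr15:69452793-69452832 on the plus strand and RPL41 at chr12:56116608-56116647 on the plus strand.
RPL21: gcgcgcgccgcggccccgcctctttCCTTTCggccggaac
RPS19: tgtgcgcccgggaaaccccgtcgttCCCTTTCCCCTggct
RPL32: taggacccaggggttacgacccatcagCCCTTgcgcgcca
RPL31: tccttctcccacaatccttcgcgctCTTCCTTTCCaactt
RPS6: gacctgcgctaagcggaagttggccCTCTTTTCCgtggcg
RPS14: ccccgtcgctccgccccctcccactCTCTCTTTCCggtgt
RPLP1: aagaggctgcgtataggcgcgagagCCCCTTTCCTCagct
RPL41: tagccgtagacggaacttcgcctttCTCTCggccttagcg
In 7 of the 8 the tract began at the annotated start, and at RPL32 it began 2 bases after it. This is not so at every member named below: at RPL9 no such tract was found within 5 bases of the start.

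Short motifs were counted on both strands in the 300-base promoters, from 250 bases before the start to 50 after it. The motif CCGGAA, the core that ETS-family factors bind, was present in 53.2% of the 62 members and in 23.1% of all promoters. The longer motif ATGGCGG, a core for the factor YY1, was present in 19.4% and 7.75%. The E-box CANNTG, the class of site that MYOD binds, was present in 43.5% of members and 64.4% of all promoters, and its form CAGCTG, counted within the class, in 8.06% and 17.7%. The form CACGTG was in 4.84% and 8.89%. The motif GGGCGG was in 54.8% and 59.2% and TATAAA in 8.06% and 9.63%, shares that lay close to each other. A match describes the letters in this window and is not evidence of binding.

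H3K27ac marked nearly every member in both arms. A peak overlapped the window of 2 kb on each side of the transcription start site (TSS) at 76 of 77 members in the control list (98.7%, interval 93.0 to 99.8%) and at all 77 in the knockdown list (100%, interval 95.2 to 100%). Over all protein-coding genes the shares were 41.5% and 51.3%. A promoter marked in the knockdown list alone was found at 1 member (1.30%), against 10.7% of all protein-coding genes. These shares cannot be compared as rates of gain, since 76 of 77 members were already marked in control. Among all protein-coding genes, 11721 of 20033 had no control peak. No member was marked in the control list alone, against 0.804% of all protein-coding genes. Marks of the lineage were present as well: 6 of 9 skeletal muscle marker genes had a promoter peak in the control list and 7 in the knockdown list, with none at MYF5 or DES in either. Of 12 markers of liver, blood, epithelium and neurons, none had a peak in the control list and KRT8 alone had one in the knockdown list.

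The single member without a control peak was RPL8, which encodes a protein of the 60S subunit. In the knockdown list it had 2 peaks covering 637 bp, and the stronger reached a fold of 4.85 with 40 reads at its summit and a local background of 7.45. The nearest control peak lay 4.48 kb from the RPL8 start, with a fold of 2.88. The control list numbers its peaks in order, and no number was skipped between the neighbours of the RPL8 start, so no numbered peak had been removed there after calling. The control list gives no value at RPL8, and no size of difference can be stated.

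The strength of each promoter was read from its strongest peak, the one with the highest −log10 p in the window. The fold deposited for a peak is its pileup, the number of reads stacked at the summit, divided by the background expected locally from the input library, each increased by 1. Pileup and background were recovered from the deposited fold and p. Across the 76 members marked in both lists, control folds ran from 3.40 to 13.4 with a median of 5.70, and knockdown folds from 3.66 to 14.9 with a median of 6.70. Over the 8151 protein-coding promoters marked in both lists, the medians were 5.19 and 6.40. The members were thus among the more strongly marked promoters without standing apart from them. Of the 76, 30 lay at or above the 90th percentile of all control peaks by −log10 p, and 34 of the 77 did so in the knockdown list. The upper quartile of this percentile was 94.4 in control and 96.2 in knockdown over the 76 members. Over all promoters marked in both lists it was 89.5 and 93.3.

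**Figure D1:**
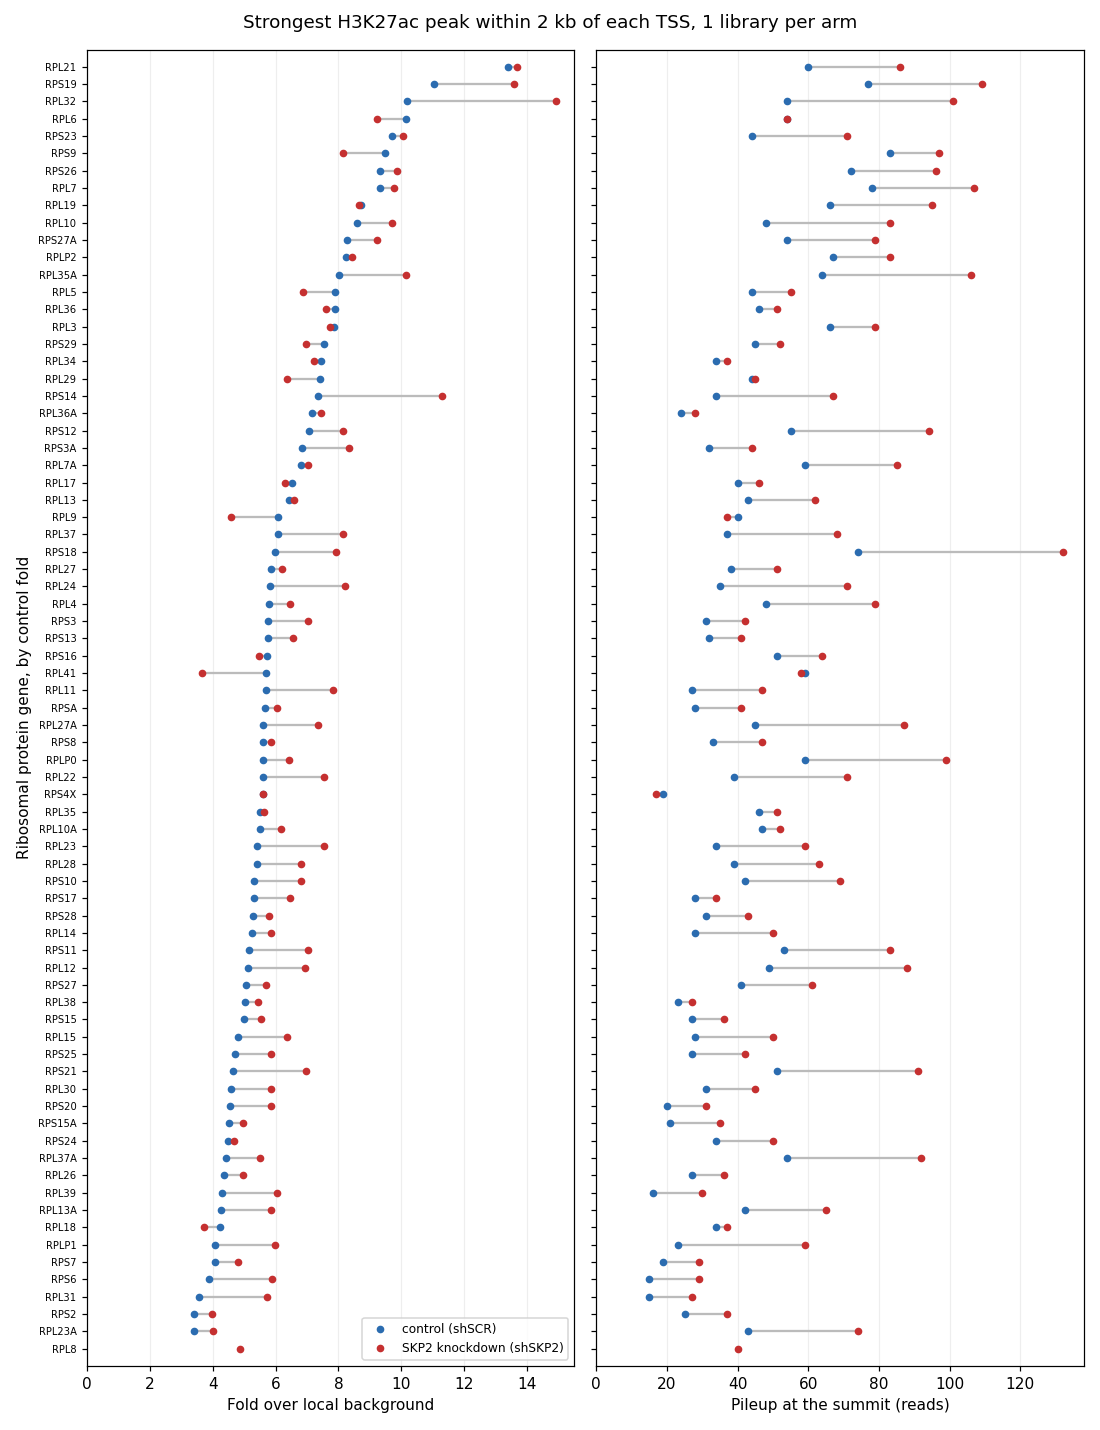
Fold over local background (left) and pileup in reads at the summit (right) of the strongest H3K27ac peak within 2 kb of the TSS, for 75 of the ribosomal protein genes ordered by control fold. Blue points are the control library and red points the SKP2 knockdown library. The red point lies to the right of the blue one at 60 of 74 genes for fold and at 70 of 74 for pileup, and RPL8 at the bottom has a knockdown value only.

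The highest control fold was at RPL21, of the 60S subunit, with 13.4 in control and 13.7 in knockdown. RPS19, a 40S protein mutated in Diamond-Blackfan anaemia, had 11.1 and 13.6. RPL32 had 10.2 and 14.9, the highest knockdown value of any member. RPL6 was lower in the knockdown list, with 10.1 and 9.23, and RPS23, at the decoding centre of the small subunit, had 9.72 and 10.1. At the other end, RPL23A had 3.40 and 3.99, RPS2 had 3.40 and 3.97 and RPS7 had 4.07 and 4.79. All 3 of these low members were higher in the knockdown list, by ratios of 1.17 to 1.18. Low fold did not mean few reads: RPL23A had a pileup of 43 and then 74, over the highest local background of any member (11.96 and 17.8).

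Between the arms, the fold was higher in the knockdown list at 62 members and lower at 14, so that 81.6% were higher, against a background of 78.9% of all promoters marked in both lists. The median ratio of knockdown to control fold was 1.13 over the members (log2 ratio 0.18) and 1.19 over all such promoters (log2 ratio 0.26). The members therefore moved with the rest of the promoters, and by slightly less. A fold at least 1.5 times higher in knockdown was found at 3 of 76 members (3.95%, interval 1.35 to 10.97%), against 17.2% of all promoters. A fold at least 1.5 times lower was found at 1 member (1.32%), against 0.491%. The members' ratios were also narrowly spread, with quartiles at 1.03 and 1.28, against 1.03 and 1.40 over all promoters. Their peaks held more reads, with a median control pileup of 40.5 against 28, and ratios of larger counts carry less counting error. The part of this in the spread and in the 1.5-fold shares was not tested.

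RPL31, RPS14 and RPS6 were the members at least 1.5 times higher. RPL31, of the 60S subunit, had a fold of 3.55 in control and 5.73 in knockdown, with pileups of 15 and 27. The 40S gene RPS14, which lies in the region lost in myelodysplastic syndrome with a deletion of 5q, had folds of 7.35 and 11.3 and pileups of 34 and 67. RPS6, the substrate of the S6 kinases, had folds of 3.88 and 5.88 and pileups of 15 and 29. RPL31 and RPS6 had the lowest control pileups of the members, and the exact interval of the pileup ratio was 0.924 to 3.64 for RPL31 and 1.00 to 3.88 for RPS6. RPS21 had folds of 4.65 and 6.97 and RPLP1, one of the acidic stalk proteins, had 4.08 and 5.99, both just under the 1.5-fold limit.

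RPL41, which encodes the smallest ribosomal protein, was the member at least 1.5 times lower. Its fold was 5.71 in control and 3.66 in knockdown, while its pileup was 59 and 58. The local background under it was 9.51 and 15.1. Its ratio of knockdown to control was 1.59 for background and 0.983 for pileup, beside members' medians of 1.31 and 1.46. Its stacked reads thus lacked the rise seen at most members, while its background rose by more. RPL9 had folds of 6.08 and 4.58, but its strongest peak lay 181 bp downstream of the start in control and at −698 bp, upstream of it, in knockdown, so that the 2 values belong to different peaks. RPL29 had 7.42 and 6.37, RPS9 had 9.49 and 8.15 and RPL5 had 7.89 and 6.87, and their pileups were higher in knockdown (44 and 45, 83 and 97, 44 and 55). At 70 of the 76 members the strongest peaks of the 2 lists overlapped.

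The reference members chosen by function are part of the 77. Of these, RPS19, RPS6 and RPL5 were named above among the highest or lowest values. RPL5 and RPL11, which bind the 5S ribosomal RNA and restrain MDM2 when ribosome assembly fails, went in opposite directions, with RPL11 at 5.69 and 7.82. RPLP0, the scaffold of the stalk, had 5.61 and 6.43. RPSA, the small-subunit protein also known as the laminin receptor, had 5.67 and 6.03, and RPL3, next to the peptidyl transferase centre, had 7.87 and 7.73. By subunit the members were alike, with median fold ratios of 1.14 for the 40S genes and 1.12 for the 60S genes and median pileup ratios of 1.46 and 1.45.

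The reads themselves differed more than the folds. The median pileup was 40.5 reads in control and 57.5 in knockdown, and the median ratio of pileups was 1.46 over the members and 1.55 over all promoters marked in both lists. The pileup was higher at 72 members, lower at 3 and equal at 1. It is not scaled for depth, and the sequencing depth of the libraries is not in the lists. The lower quartile of the pileup ratio was 1.25 over the members and 1.29 over all promoters marked in both lists. An exact conditional interval for the ratio of 2 read counts lay above 1 at 33 members and below 1 at none. The same interval count over all promoters is not given, so it does not set the members apart. For 74 of 76 members the interval contained the members' own median ratio of 1.46. This cannot show a common ratio, since that median comes from the same members and the intervals are wide, such as 0.924 to 3.64 at RPL31. The exceptions were RPL41, with a ratio of 0.983 (interval 0.672 to 1.44), and RPLP1, with 23 and 59 reads and a ratio of 2.57 (1.56 to 4.35).

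The local background was also higher under the members. Its median was 5.45 in control and 7.43 in knockdown, and it was higher in knockdown at 73 of 76 members. The median ratio was 1.31 against 1.34 over all promoters marked in both lists, and the lower quartile was 1.22 against 1.16. The lowest background in each list, which is a floor set by the library as a whole, went the other way for H3K27ac, at 1.75 in control and 1.61 in knockdown, a ratio of 0.920. For MYOD it was 1.48 and 1.94, a ratio of 1.31. Divided by the floor in place of the local background, the members' median ratio was 1.59, against 1.68 over all promoters. The ratio taken as the scale between the arms thus ran from 1.13 to 1.59 with the quantity used, and on each of these quantities the members lay below the median of all promoters. Away from promoters the local background differed less, with a median ratio of 1.19 at 10294 one-to-one peak pairs farther than 2 kb from any protein-coding TSS and 1.34 at 7112 pairs within 2 kb. The pileup ratios of these pairs were 1.37 and 1.53 and their fold ratios 1.16 and 1.18. The part of depth, input or spike-in scaling in these ratios was not tested.

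**Figure D2:**
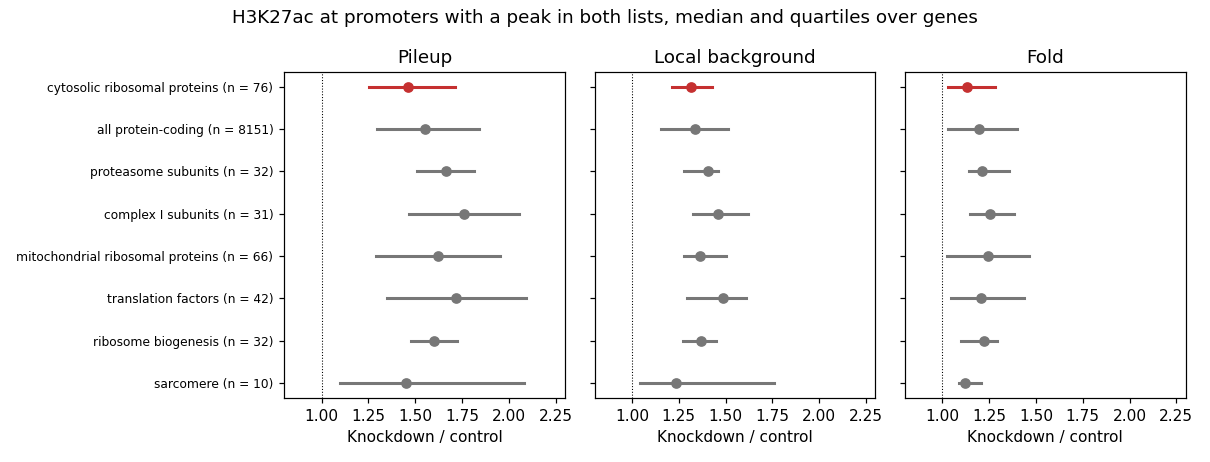
Ratio of knockdown to control in pileup, local background and fold (linear axes, no unit) at promoters with an H3K27ac peak in both lists, as the median (point) and quartiles (line) over the genes of each list. The cytosolic ribosomal protein genes in red have medians of 1.46, 1.31 and 1.13, below the medians of all protein-coding promoters at 1.55, 1.34 and 1.19.

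Other housekeeping gene lists gave slightly higher ratios. The median pileup ratio was 1.66 over 32 proteasome subunit genes, 1.76 over 31 subunit genes of respiratory complex I, 1.62 over 66 mitochondrial ribosomal protein genes, 1.72 over 42 translation factor genes and 1.60 over 32 ribosome biogenesis genes. The corresponding log2 fold ratios were 0.28, 0.33, 0.31, 0.27 and 0.29, beside 0.18 for the cytosolic ribosomal proteins. The differences between these lists and the members were not tested. Within these lists NDUFS4 of complex I (log2 fold ratio 1.02) and MRPL45 of the mitochondrial ribosome (1.46) lay above every member. The lowest values named in them, at MRPL4 (−0.58) and the translation factor gene EIF5A (−0.48), were less low than that of RPL41 (−0.64). Among the shared promoters whose mean fold lay between the members' quartiles, 3479 in all, the median fold ratio was 1.22 and the pileup ratio 1.60. The members thus lay below promoters of like strength too, without a test of that difference.

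Against this scale, which may itself differ between the arms, the muscle genes were read. At the 10 sarcomere genes marked in both lists the median pileup ratio was 1.45 and the log2 fold ratio 0.16, both −0.02 from the members' medians on the log2 scale. TNNI1 (log2 fold ratio 0.71) and MYOZ2 (0.47) had the largest ratios, and TNNC1 (−0.01) and TNNT2 (0.06) the smallest. These ratios leave out the 8 of 35 sarcomere promoters that were marked in the knockdown list alone. Their share was 22.9% (interval 12.1 to 39.0%), against 10.7% of all protein-coding genes. A peak was called at 10 of 35 sarcomere promoters in control (28.6%, interval 16.3 to 45.1%) and at 18 in knockdown (51.4%, interval 35.6 to 67.0%), beside 41.5% and 51.3% of all protein-coding genes in a knockdown list that is longer as a whole. The 6 muscle marker genes with peaks in both lists had a median pileup ratio of 1.28 and a log2 fold ratio of 0.03.

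H3K27ac peaks covered more of the members' promoters in the knockdown list. The covered length of the 4 kb window had a median of 834 bp in control and 1244 bp in knockdown over the 77 members, and the median difference was 412 bp. Cover was larger in knockdown at 71 members and smaller at 6. Over all promoters marked in both lists the median difference was 385 bp and 90.7% were larger. RPLP1 gained the most, from 966 to 2092 bp. RPL10A went from 378 to 1394 bp, RPS15A from 482 to 1491 bp and RPL41 from 1380 to 2372 bp. RPL41, with the largest drop in fold, thus had one of the largest differences in cover. The 6 members with less cover were RPL21 (810 and 634 bp), RPS28 (1493 and 1378 bp), RPS4X (489 and 384 bp), RPS14 (1150 and 1076 bp), RPS24 (763 and 717 bp) and RPL5 (992 and 983 bp).

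Around the start site the peaks lay on either side of a gap. In control the TSS itself was covered at 13 of 77 members (16.9%, interval 10.1 to 26.8%), whereas the position 300 bp downstream was covered at 85.7% of members. In knockdown the TSS was covered at 32 (41.6%, interval 31.2 to 52.7%) and the position 100 bp downstream at 94.8%. Over all promoters marked in both lists the share at the TSS went from 20.9 to 40.9%, and 32 proteasome genes went from 40.6 to 53.1%. Downstream cover exceeded upstream cover, with medians of 489 and 291 bp in control and 713 and 558 bp in knockdown. At 500 bp downstream, 58.4% of members were covered in control and 81.8% in knockdown, beside 33.1 and 57.2% of all promoters, and at 500 bp upstream 49.4 and 64.9%, beside 36.2 and 54.3%. The strongest summit was downstream at 39 members and upstream at 37 in control, and 37 and 40 in knockdown, so neither side held most of the summits. A pair of peaks or more was called at 38 members in control and 33 in knockdown. At 12 members 2 control peaks were replaced by 1 knockdown peak, and at 6 members the reverse was found. The same peak counts over all promoters are not given, so they do not set the members apart.

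**Figure D3:**
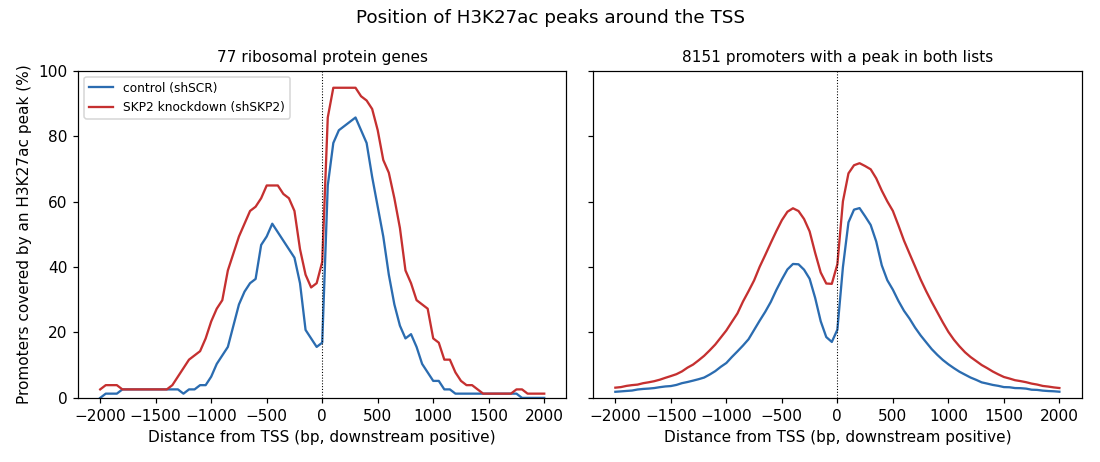
Share of promoters (%) covered by an H3K27ac peak at each distance from the TSS (bp, downstream positive), for the 77 ribosomal protein genes (left) and the 8151 protein-coding promoters with a peak in both lists (right), in control (blue) and knockdown (red). Both panels dip at the TSS, where cover of the ribosomal protein genes is 16.9% in control and 41.6% in knockdown, and the ribosomal protein genes reach 85.7 and 94.8% downstream of it.

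Peaks were also ranked within their own list, and such a rank depends on how many weaker peaks the list holds. By −log10 p the members' strongest peaks had a median percentile of 87.3 in control and 89.0 in knockdown. Over single members the median difference was 2.36 percentile points, against 6.28 over all promoters marked in both lists. Those promoters had a median control percentile of 72.4, so the members began higher and had less room to rise on a bounded scale. The part of this in the smaller difference was not tested. The knockdown list holds more peaks, 38457 against 25356. With both lists cut to the same length by −log10 p, the members' median difference was −0.96 points, so the members had no stable direction in rank. The equal-length value over all promoters is not given.

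MYOD peaks were few at the members, and both intervals below contain the share over all protein-coding genes. In the control list 1 of 77 had a MYOD peak in its window (1.30%, interval 0.230 to 6.996%), against 6.4% of all protein-coding genes. In the knockdown list 6 did (7.79%, interval 3.62 to 16.0%), against 10.8%. No MYOD peak was found at 71 members in either list. The nearest MYOD peak lay at a median distance of 83.2 kb from the members' TSS in control and 43.8 kb in the longer knockdown list. The same distance over all protein-coding genes is not given. For comparison, MYOD peaks were found at 7 of 35 sarcomere genes in control (20.0%) and at 5 of 9 muscle markers (55.6%).

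**Figure D4:**
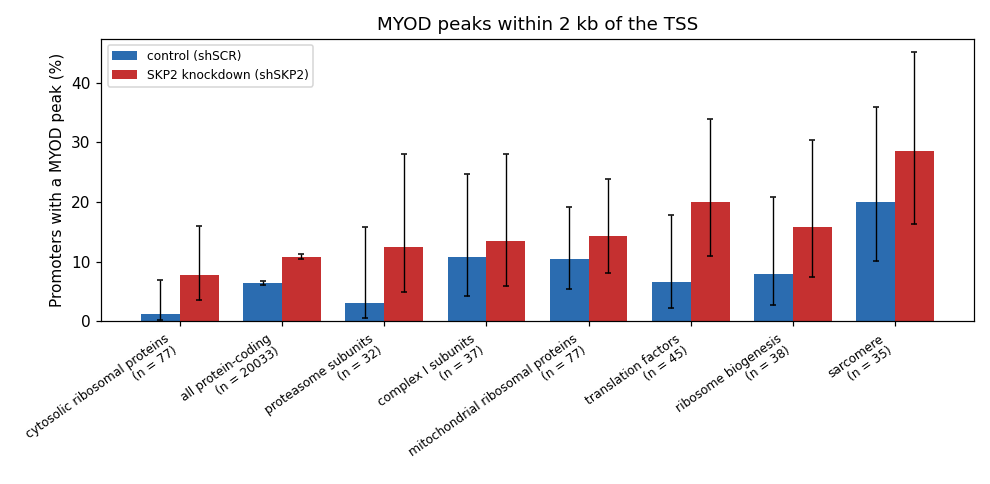
Share of promoters (%) with a MYOD peak within 2 kb of the TSS in control (blue) and knockdown (red) for all protein-coding genes and 7 gene lists, with 95% Wilson intervals that cover counting error only. The cytosolic ribosomal protein genes have bars at 1.30 and 7.79%, beside 6.4 and 10.8% for all protein-coding genes, and the sarcomere genes have a control bar at 20.0%.

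RPS29, of the 40S subunit, was the only member with a MYOD peak in both lists (1.30%, interval 0.230 to 6.996%), against 4.37% of all protein-coding genes. The fold was 10.2 in control and 9.93 in knockdown, with 29 and 32 reads at the summit, and the summits lay at −295 and −437 bp from the GENCODE start, where negative positions are upstream. No CANNTG lay within 100 bp of either summit. RefSeq places the start of RPS29 12330 bp away, so this peak is near one of several annotated starts. Its H3K27ac fold was 7.54 and 6.97.

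The other 5 had a MYOD peak in the knockdown list alone, and all were weaker than that at RPS29. Of all 20033 protein-coding genes, 2168 had a MYOD peak in the knockdown list and 876 had one in both lists. A peak in the knockdown list alone is therefore not particular to the members. Of the 5 members, 4 are described here. RPS16 had a fold of 4.36 with a summit in its first intron, RPL12 had 4.29 with a summit in exon 2 of the neighbouring gene LRSAM1, and RPL18 had 3.48 with a summit in its first intron and a −log10 p of 4.77. The peak at RPL23A, with a fold of 4.14, reached into the window from a summit at −2061 bp, within RAB34. An E-box lay within 100 bp of the summit at RPS16 and RPL18 and not at RPL12 or RPL23A. The H3K27ac folds of these 4 were between 0.88 and 1.35 times those of control, and included lower values at RPL18 (4.24 and 3.72) and RPS16 (5.72 and 5.47).

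The E-box nearest to the MYOD summit of RPS16 is shown, since the summit of this knockdown peak lies close to a ribosomal protein start and the form CAGCTG is within 100 bp of it, just outside the peak itself. Capitals mark the E-box, and the sequence is read from the plus strand of hg38 at chr19:39435681-39435710, with the E-box 53 bp below the summit.
RPS16: tgcagtgcgccaCAGCTGtcgctgtcttct
With 15 reads at its summit the peak rests on few reads, and the control list gives no value there.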

How the data were processed

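Chromatin was fixed with formaldehyde, cut with micrococcal nuclease and immunoprecipitated with Drosophila chromatin as a spike-in, by the study's methods. BWA (0.7.17), MACS3 and deepTools are the tools in the submitters' processing notes. The methods describe alignment to GRCh38, narrow peaks called by the authors in each library against input with duplicates kept, and removal of an exclusion list. The methods state a p threshold equal to a −log10 p of 5, while the lists begin just above 4 (4.00 to 4.01). The sources used here do not say whether peaks were called on values scaled to the spike-in.

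Per peak, the authors deposited a fold (a ratio to local background), −log10 p and −log10 q values, a score (10 times a −log10 value, within 1) and the distance of the summit from the peak start. From fold and p the whole-number pileup was recovered at all peaks of 3 lists and at 99.9882% of knockdown MYOD peaks (tolerance 0.001). Sequencing depth is unknown. Lists held 25356 and 38457 H3K27ac peaks and 5814 and 8457 MYOD peaks on chromosomes 1 to 22, X and Y, and 1 row of each H3K27ac list lay elsewhere and was left out.

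Groups were taken from sample titles. A promoter was the canonical TSS of GENCODE release 44 with 2 kb on each side, and an overlap of at least 1 bp counted. Ribosomal protein genes have many processed pseudogene copies, so reads shared with them are uncertain in placement. At 20 members the window holds another protein-coding TSS. The members and all 10 lists (296 entries, all matched) were chosen with earlier results of these data known. Genes were named by rule: 7 reference members, the 5 highest and lowest in control fold, fold ratio and cover difference, members lacking an H3K27ac peak in a list, members with a MYOD peak, FAU, RACK1, 8 paralogs, and from each other list up to 2 largest and 2 smallest fold ratios. Some genes under this rule are not reported here by name. Python 3.11.15, pandas 2.3.3, scipy 1.17.1 and statsmodels 0.14.6 were used, and the scripts were tested on simulated data. Alternatives covered thresholds, windows, overlap, TSS choice and the quantity compared.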

Additional observations from a re-analysis of the deposited data

How the results depend on the processing

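With 1 library per group there is no spread between replicates, and these values are limited by counting error and unknown depth. Among peaks whose −log10 p reached 10, the share of members with a control H3K27ac peak was 88.3% (68 of 77), the knockdown MYOD share was 2.60% (2 of 77) and the median percentile difference was 5.41. With lists of equal length the knockdown MYOD share was again 2.60% and the percentile difference reversed to −0.96. The same values over all protein-coding genes under these settings are not given, so they do not set the members apart. Other quantities in place of fold gave median log2 ratios of 0.55 (pileup), 0.67 (pileup over the lowest background) and 0.59 (−log10 p). The other 53 values from these alternatives kept their direction and stayed within a 95% interval of the reported value (Wilson for shares, order statistics over the members for medians, which describes the spread over genes only). They included the fold ratio over the 70 members whose strongest peaks overlap (0.17), an alternative chosen after seeing the data. Over all alternatives the median cover difference ran from 361 to 480 bp and the fold ratio from 0.16 to 0.67 on the log2 scale. The causes were not tested. No paired analysis was possible because each group has 1 library.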

Other observations

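Ribosomal proteins and close relatives outside the symbol rule were also read. FAU, which encodes a ribosomal protein fused to a ubiquitin-like protein, had H3K27ac folds of 4.24 and 4.87 in control and knockdown. RACK1, a small-subunit scaffold, had 4.98 and 4.36. Neither had a MYOD peak in either list.

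Among 8 paralogs of ribosomal protein genes, RPL3L, RPL10L and RPL39L had no H3K27ac peak in either list, and RPL3L is known as a striated muscle paralog of RPL3. The other 5 were marked in both lists. RPL36AL had folds of 8.23 and 8.15 and a MYOD peak with a fold of 4.36 in the knockdown list alone. RPL7L1 had 7.62 and 8.49, RPL22L1 had 7.32 and 9.09, RPS27L had 3.96 and 4.14 and RPL26L1 had 3.88 and 5.28. Their median pileup ratio was 1.35, beside 1.46 for the ribosomal protein genes.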
